A study of Mus musculus with 7 samples.

Results

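The mammalian *Period* (*Per1*, *Per2*, *Per3*) and *Cryptochrome* (*Cry1*, *Cry2*) genes encode the repressors of the circadian clock. They were taken by gene symbol and Ensembl identifier from a table of read counts per gene. The 5 genes were found among 21965 in the table, and all of them passed the filter on low counts, which left 15743 genes to be tested.

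BMAL1, the product of *Arntl*, pairs with CLOCK or NPAS2 and drives transcription from E-boxes, among them those of the *Per* and *Cry* genes. PER and CRY proteins accumulate, enter the nucleus with casein kinase 1 and shut BMAL1:CLOCK down, with CRY binding the activator directly and PER acting as the scaffold. A second loop is formed by the REV-ERB repressors (*Nr1d1*, *Nr1d2*) and the ROR activators, and another by DBP and its relatives, which act at D-boxes against the repressor NFIL3. The clock runs in most cells of the spinal cord, including neurons, astrocytes and endothelial cells.

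RNASeq was done on a 5 mm piece of spinal cord around the epicenter of a moderate T9 contusion (50 kdyn) at 3 days post-injury (dpi 3). The *Bmal1*-/- group had 3 mice (2 females, 1 male) with a germline targeted *Arntl* allele (Arntltm1Bra) on a C57BL/6 background, and the WT group had 4 C57BL/6 mice (2 females, 2 males), with the substrain given as C57BL/6J for both in the methods of the study. Each mouse gave 1 library, every mouse of both groups was injured, and no uninjured cord was analysed here. Per the methods of the study, most WT mice were bought rather than bred beside the mutants, and tissue was collected in the morning, so each level is a reading at a single phase of the daily cycle and holds nothing on its amplitude.

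Total counts ran from 38529644 to 44096737 per library, and replicate 3 of WT was set off from its group along the first and second principal components of expression, which held 48.6% and 26.3% of the variance. The targeted gene, *Arntl*, was counted at a level of 22.5 to 24.2 CPM (counts scaled to the size of the library) in mice labelled *Bmal1*-/- and of 11.9 to 15.3 CPM in WT, which passed as higher (log2 fold change 0.77, adjusted p = 0.0155 in edgeR). A count over the whole gene includes exons outside the targeted part and so checks nothing about the allele. Directions are therefore given for the libraries as labelled, *Bmal1*-/- against WT. Defining markers of neurons, astrocytes, oligodendrocytes, endothelial cells and microglia or macrophages were all detected. In such tissue, fewer cells of a type and less RNA per cell cannot be told apart.

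The sequences before the start sites of *Per3*, *Cry1* and *Cry2* are shown because *Per3* and *Cry1* moved in opposite directions, and *Cry2* is the paralog of *Cry1*. Promoter windows from RefSeq (build GRCm38.p6) were present for 4 of the 5 genes, with none for *Per2*, and each ran from 250 bases before the start to 50 after it. The 250 bases before each start are printed 5′ to 3′ on the strand of the gene, which is the minus strand in each case, at chr4:151044666-151044915 for *Per3*, chr10:85185055-85185304 for *Cry1* and chr2:92434070-92434319 for *Cry2*. Capitals mark each match, on either strand, to the E-box (CACGTG), the E′-box (CACGTT), the D-box (TTATGTAA or TTACGTAA), the core read by REV-ERB and ROR (AGGTCA) and the cAMP response element (TGACGTCA).
Per3: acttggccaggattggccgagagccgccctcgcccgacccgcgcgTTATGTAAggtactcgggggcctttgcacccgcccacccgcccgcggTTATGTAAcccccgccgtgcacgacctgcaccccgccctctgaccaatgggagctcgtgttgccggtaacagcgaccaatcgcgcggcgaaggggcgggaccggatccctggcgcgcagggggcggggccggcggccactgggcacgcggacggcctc
Cry1: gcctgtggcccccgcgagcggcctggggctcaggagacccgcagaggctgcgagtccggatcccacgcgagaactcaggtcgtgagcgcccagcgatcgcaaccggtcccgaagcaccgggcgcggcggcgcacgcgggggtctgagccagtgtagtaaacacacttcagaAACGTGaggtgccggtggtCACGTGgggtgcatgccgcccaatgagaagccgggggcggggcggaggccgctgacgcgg
Cry2: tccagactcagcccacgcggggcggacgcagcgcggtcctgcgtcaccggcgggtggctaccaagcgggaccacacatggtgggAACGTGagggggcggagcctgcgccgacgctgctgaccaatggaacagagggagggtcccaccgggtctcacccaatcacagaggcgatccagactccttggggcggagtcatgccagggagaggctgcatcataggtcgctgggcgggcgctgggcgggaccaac
No match overlapped another.

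The *Per3* window held the D-box letters TTATGTAA at 2 places, 205 and 158 bases before the start, and no other motif. *Cry1* had the E-box 60 bases and the E′-box, read as AACGTG, 79 bases before its start. *Cry2* had an E′-box 166 bases before its start. Of the windows of *Per1*, which had 2 starts, the upstream one held the E-box 166 bases before the start and the REV-ERB and ROR core, read as TGACCT, 137 bases before it, whereas the downstream one held none of the 5. Among all 32851 promoter windows, 1.06% held a D-box, 7.15% an E-box, 4.68% an E′-box, 16.3% the REV-ERB and ROR core and 1.79% the cAMP response element. A match describes letters in the window and is no evidence that a factor was bound there in these cords.

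With edgeR's quasi-likelihood test and Benjamini-Hochberg adjustment over all genes tested, *Cry1* rose and *Per3* fell in the libraries labelled *Bmal1*-/-, and *Per1*, *Per2* and *Cry2* did not pass an adjusted p of 0.05. That is 1 gene higher and 1 lower among 5, where 0.654% of all genes tested were higher and 0.915% were lower. The groups did not overlap for any of the 5 genes: for 4 of them the lowest library labelled *Bmal1*-/- lay above the highest of WT, and for 1 the order was reversed. Such separation was common in these data, since 13.4% of all genes were higher without overlap and 13.5% were lower. DESeq2, the tool used in the study, called all 5 genes, and it called 9.13% of the genes to which it gave an adjusted p.

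**Figure D1:**
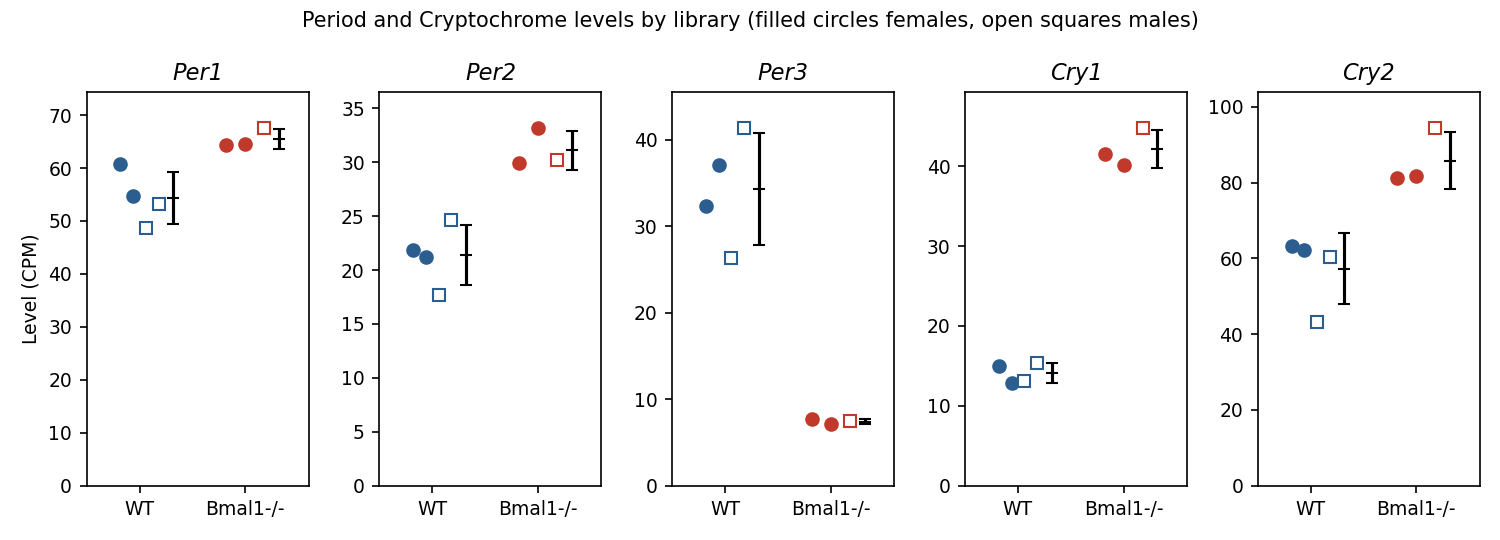
Level of each *Per* and *Cry* gene in CPM (vertical axis, from 0) in every library of the WT (blue, 4) and *Bmal1*-/- (red, 3) groups, with females as filled circles, males as open squares and black bars for mean ± SD. *Cry1* sits at 40.2 to 44.8 CPM against 12.9 to 15.4 in WT, *Per3* at 7.13 to 7.68 against 26.3 to 41.4, and the gap between groups is far narrower for *Per1*.

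*Cry1* (ENSMUSG00000020038, chr10:85131700-85185064 on GRCm38, as for the genes below, minus strand) encodes the stronger and later acting of the CRY repressors. It had 41.5, 40.2 and 44.8 CPM in the libraries labelled *Bmal1*-/- and 15.0, 12.9, 13.1 and 15.4 CPM in WT. Each of the former lay far above the highest WT library. The means were 42.1 ± 2.39 CPM (SD, n = 3) and 14.1 ± 1.3 CPM (SD, n = 4), a 2.99-fold rise (95% interval 2.59 to 3.46), or 1.58 on the log2 scale (standard error 0.09, adjusted p = 0.000456 in edgeR). It held the 21st rank by size among the genes that rose. With each library left out in turn the log2 fold change stayed between 1.53 and 1.62, and the call was kept each time.

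*Cry2* (ENSMUSG00000068742, chr2:92403646-92434043, minus strand) encodes the weaker repressor of the pair. Its level was 81.2, 81.7 and 94.5 CPM in the libraries labelled *Bmal1*-/- and 63.2, 62.3, 43.2 and 60.3 CPM in WT. The WT library at 43.2 CPM, replicate 3, lay well below the other three. Means were 85.8 ± 7.57 CPM (SD, n = 3) and 57.3 ± 9.46 CPM (SD, n = 4), and the log2 fold change of 0.58 (standard error 0.14, 95% interval 0.26 to 0.91) gave an adjusted p of 0.0932 in edgeR. Without WT replicate 3 the difference was smaller, at 0.47, and passed (adjusted p = 0.0176, with a range of 0.0176 to 0.332 over the 7 fits that left out a library). The antisense gene D930015M05Rik overlaps 295 of the 6320 exon bases of *Cry2*, and whether its reads entered the count was not tested.

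Of the *Per* genes, *Per3* (ENSMUSG00000028957, chr4:151003652-151044665, minus strand) is the one least needed for rhythm in mice, and it was the only member to fall. In the libraries labelled *Bmal1*-/- it had 7.68, 7.13 and 7.46 CPM, against 32.3, 37.1, 26.3 and 41.4 CPM in WT. The former were almost alike, while the WT libraries were spread widely and all lay far above them. From 34.3 ± 6.49 CPM (SD, n = 4) in WT to 7.42 ± 0.277 CPM (SD, n = 3), *Per3* was 4.62-fold lower (log2 fold change -2.21, standard error 0.16, 95% interval -2.59 to -1.83, adjusted p = 0.00115 in edgeR). It ranked 33rd by size among the genes that fell. The call was kept with each library left out, at -2.32 to -2.10.

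*Per2* (ENSMUSG00000055866, chr1:91415982-91459324, minus strand) and *Per1* encode the PER scaffolds on which rhythm depends. The level of *Per2* was 29.9, 33.2 and 30.2 CPM in the libraries labelled *Bmal1*-/- and 21.9, 21.2, 17.7 and 24.6 CPM in WT. The lowest of the former was 21.8% above the highest WT library. Means were 31.1 ± 1.81 CPM (SD, n = 3) and 21.4 ± 2.82 CPM (SD, n = 4), and the difference on the log2 scale was 0.54 (standard error 0.11, 95% interval 0.28 to 0.81, adjusted p = 0.0688 in edgeR). Without WT replicate 3, it was 0.46 and passed (adjusted p = 0.0261, with a range of 0.0261 to 0.225 over the 7 such fits).

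*Per1* (ENSMUSG00000020893, chr11:69095217-69109960, plus strand), which also responds within hours to glucocorticoids and cAMP, differed least. Its 64.4, 64.5 and 67.6 CPM in the libraries labelled *Bmal1*-/- stood against 60.7, 54.8, 48.7 and 53.2 CPM in WT. A margin of 6.09% parted the groups. The log2 fold change was 0.27 (standard error 0.08, 95% interval 0.08 to 0.45, adjusted p = 0.143 in edgeR), between means of 65.5 ± 1.86 CPM (SD, n = 3) and 54.3 ± 4.94 CPM (SD, n = 4). It did not pass with any single library left out (0.22 to 0.32).

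**Figure D2:**
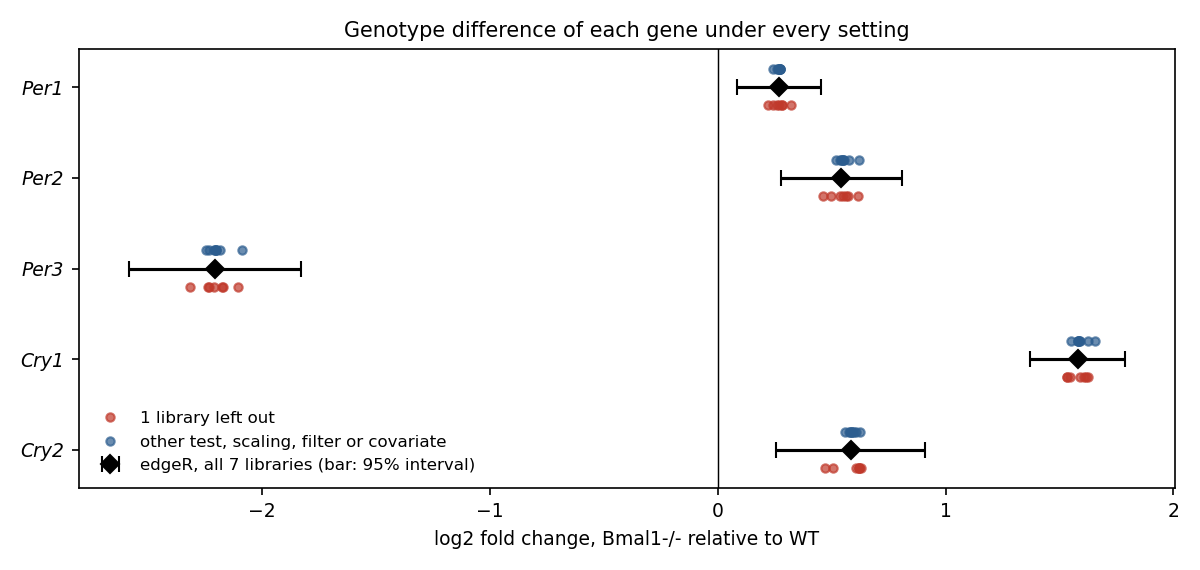
Log2 fold change of each gene, *Bmal1*-/- relative to WT (horizontal axis), from the edgeR fit on all 7 libraries (black, bar 95% interval), with 1 library left out (red) and under the other tests, scalings, filters and covariates (blue). Each gene keeps its sign in every fit, with *Per3* between -2.32 and -2.09 and *Cry1* between 1.53 and 1.65. With a library left out, a change of sign was hardly possible, since the groups do not overlap for any gene.

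The spread between mice differed among the genes. The coefficient of variation in WT was largest for *Per3* (18.9%) and *Cry2* (16.5%) and smallest for *Per1* (9.08%) and *Cry1* (9.23%). In the libraries labelled *Bmal1*-/- it was 2.84% to 8.83%, below the WT value of the same gene for all 5. For *Per3* in these libraries, with 294 to 307 counts, the spread of 3.74% was below the 5.76% expected from counting alone. WT replicate 3 had the lowest level of *Per1*, *Per2*, *Per3* and *Cry2* among WT, but not of *Cry1*. The same library had the lowest WT sums of neuron markers (1566 CPM over 6 genes, against 2724 to 3606 CPM in the other WT libraries) and astrocyte markers (9524 against 10932 to 13609 CPM). It had the highest WT sums of oligodendrocyte (34466 CPM), endothelial (654 CPM), microglia or macrophage (1152 CPM) and proliferation markers (634 CPM). Their part in these levels was not tested.

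The genotypes were also compared within each sex, where a group holds 1 or 2 mice. In females, the log2 difference was 1.55 for *Cry1*, -2.22 for *Per3*, 0.55 for *Per2*, 0.37 for *Cry2* and 0.16 for *Per1*. In males, it was 1.66, -2.14, 0.53, 0.89 and 0.41 in that order. Every gene kept its direction in both sexes, but this was fixed in advance, since the groups did not overlap for any of the genes. A test of the difference between sexes in edgeR, chosen after the data were seen, rests on 1 male labelled *Bmal1*-/-. It passed for 0 of all 15743 genes, of which 1934 had an unadjusted p under 0.05, and says nothing on whether the sexes were alike.

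Levels per kb of exon (CPM over the joint length of all annotated exons of a gene) put the genes in a different order in each genotype. The length of the transcripts expressed in these cords was not measured, and the order, sums and shares below rest on the annotated length. In WT, *Per1* led with 9.65 ± 0.877 CPM per kb, and *Cry2* at 9.06 ± 1.5 overlapped it. *Cry1* (4.22 ± 0.389), *Per2* (3.65 ± 0.482) and *Per3* (3.57 ± 0.675) formed a lower group in which the ranges of neighbours overlapped, although *Cry1* exceeded *Per2* in each of the 4 libraries. *Cry1* thus stood with the least abundant members in WT. In the libraries labelled *Bmal1*-/- it had 12.6 ± 0.714 CPM per kb and stood just under *Cry2* (13.6 ± 1.2), with ranges that overlapped. They were followed, with no overlap, by *Per1* (11.6 ± 0.33), *Per2* (5.31 ± 0.308) and *Per3* (0.772 ± 0.0289).

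Summed per kb, the *Per* levels overlapped between the groups and the *Cry* levels did not. The *Per* sum was 17.3, 17.9 and 17.9 CPM per kb in the libraries labelled *Bmal1*-/- and 17.9, 17.2, 14.4 and 18.0 in WT. The *Cry* sum was 25.3, 24.9 and 28.4 CPM per kb against 14.5, 13.7, 10.7 and 14.1. These sums were not tested. Within the *Per* sum, the share of *Per3* went from 21.1% ± 2.57 in WT (range 18.8% to 24.0%) to 4.36% ± 0.232 (range 4.15% to 4.61%). *Cry1* made up 32.0% ± 3.45 of the *Cry* sum in WT and 48.2% ± 0.95 in the libraries labelled *Bmal1*-/-.

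**Figure D3:**
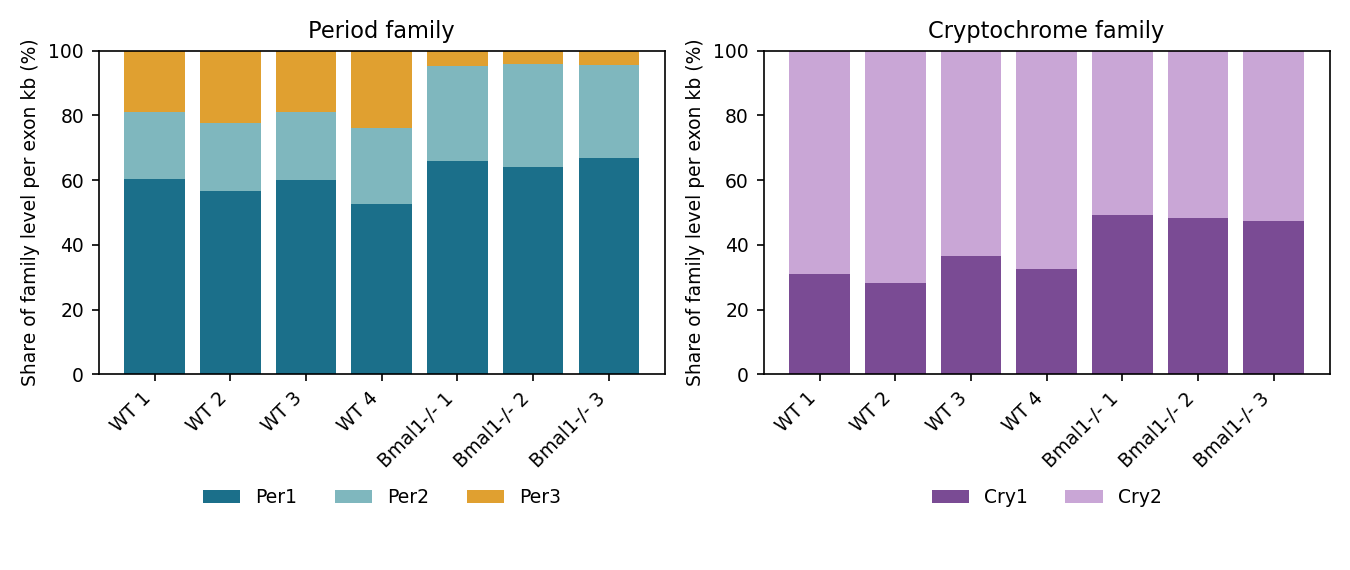
Share of each paralog in the summed level of its family per kb of exon (vertical axis, percent) in every library, with the *Period* family on the left and the *Cryptochrome* family on the right. *Per3* takes 18.8% to 24.0% of the *Period* sum in WT and 4.15% to 4.61% in the libraries labelled *Bmal1*-/-, and *Cry1* goes from 28.1% to 36.4% in WT to 47.3% to 49.2%.

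Whether the paralogs moved apart was tested on ratios of counts within a library, which no scaling between libraries can change. Given as mean ± SD, the log2 ratio of *Cry1* to *Cry2* was -1.02 ± 0.05 for the 3 mice labelled *Bmal1*-/- and -2.01 ± 0.23 for the 4 WT mice, a difference of 0.99. For *Per3* over *Per2*, the log2 ratio was -2.07 ± 0.14 and 0.67 ± 0.13 in the same order, a difference of -2.74. *Per3* over *Per1* differed by -2.46, with -3.14 ± 0.06 against -0.68 ± 0.27. In these 3 ratios the groups did not overlap, and each gave p = 0.0286 in a two-sided exact permutation test, the smallest that 3 against 4 libraries allow, or 0.0357 after adjustment over 5 ratios. For *Per3* over *Per2* and over *Per1*, the lack of overlap was fixed in advance. *Per3* was lower, and *Per1* and *Per2* were higher, with no overlap between the groups. The p-values of these *Per3* ratios thus add nothing to the levels of the genes. The ratio of *Per1* to *Per2* was 1.07 ± 0.11 against 1.35 ± 0.17, with groups that overlapped and a difference of -0.28 (exact permutation test, p = 0.0857, adjusted p = 0.0857). The summed *Per* counts over the summed *Cry* counts had a log2 ratio of -0.30 ± 0.10 against 0.63 ± 0.07, so *Per* reads outnumbered *Cry* reads in every WT library and in none of those labelled *Bmal1*-/- (difference -0.92, exact permutation test, p = 0.0286, adjusted p = 0.0357).

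Of 35 other clock genes, all of which could be tested, 4 were higher, 5 were lower and 26 did not pass in edgeR. Among all genes tested, 0.654% were higher and 0.915% were lower. The targeted gene, *Arntl*, is 1 of the 4. The median log2 fold change of the 35 genes was 0.04 against -0.01 for all genes tested, but single values ran from -2.68 to 2.62. Of the 35, 19 are genes of PER and CRY turnover and partners, of which 0 passed. Among the activators, *Npas2*, which can replace CLOCK, rose by 2.62 on the log2 scale (standard error 0.19, adjusted p = 0.000918), from 9.99 ± 2.23 CPM in WT to 61.4 ± 6.65 CPM. *Clock* rose by 0.48 (standard error 0.07, adjusted p = 0.0247), but its call held in 2 of 7 fits with a library left out. *Arntl* held its call in 3 of 7 such fits, and the *Arntl* paralog *Arntl2* had a log2 fold change of -0.10. With the targeted gene set aside, the activators that passed were *Npas2* and *Clock*, both higher, as *Cry1* was.

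Both REV-ERB genes were lower, as *Per3* was. *Nr1d1* went from 34.2 ± 3.47 to 6.0 ± 1.11 CPM and fell by 2.51 on the log2 scale (standard error 0.15, adjusted p = 0.000456 in edgeR), and *Nr1d2* from 73.7 ± 10.9 to 11.5 ± 1.75 CPM, at -2.68 (standard error 0.16, adjusted p = 0.000456). *Rora* and *Rorb* did not pass, with log2 fold changes of 0.48 (adjusted p = 0.0731) and 0.04.

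Of the D-box factors, 1 activator fell and the repressor rose. *Dbp*, an activator at D-boxes, fell from 30.4 ± 6.2 to 8.45 ± 0.566 CPM (log2 fold change -1.85, standard error 0.16, adjusted p = 0.00328 in edgeR). *Nfil3*, the repressor at the same element, rose from 14.8 ± 0.953 to 28.3 ± 1.7 CPM (0.94, standard error 0.08, adjusted p = 0.00259). The other PAR bZIP activators did not pass, with log2 fold changes of -0.31 for *Tef* and 0.01 for *Hlf*.

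Of the other repressors of BMAL1:CLOCK, *Ciart* fell by 1.29 on the log2 scale (adjusted p = 0.00696 in edgeR) and *Bhlhe40* by 0.67 (adjusted p = 0.0155), while *Bhlhe41* had -0.28 (adjusted p = 0.133). *Bhlhe40* held its call in 4 of 7 fits with a library left out, and *Ciart* in 6, losing it without *Bmal1*-/- replicate 1. *Npas2*, *Nr1d1*, *Nr1d2*, *Nfil3* and *Dbp* held theirs in all 7, as *Per3* and *Cry1* did. The repressors thus did not move as a block, with *Cry1* and *Nfil3* higher and *Per3*, *Ciart*, *Bhlhe40* and both REV-ERB genes lower.

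**Figure D4:**
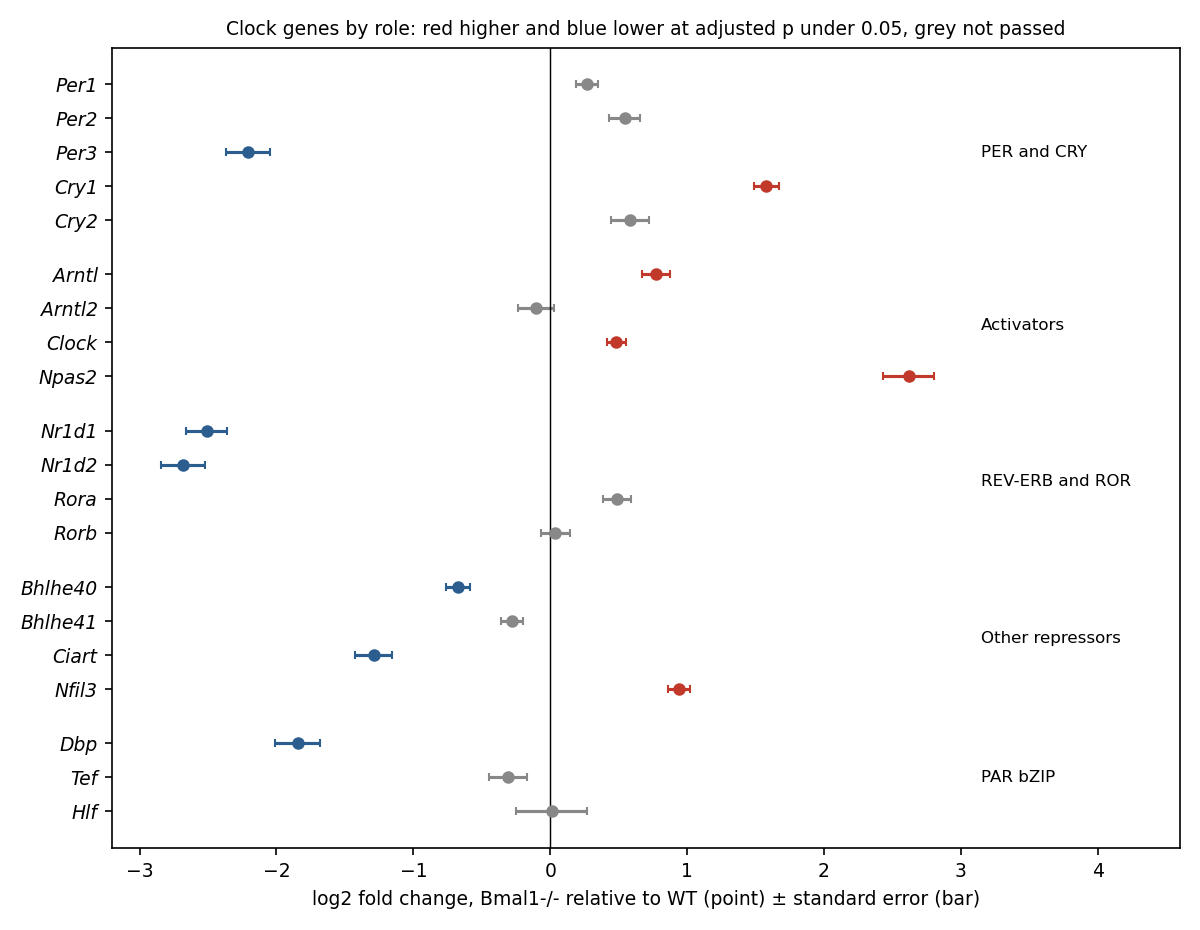
Log2 fold change, *Bmal1*-/- relative to WT (horizontal axis, point ± standard error), of the *Per* and *Cry* genes and of other clock transcription factors grouped by role. Red marks genes higher and blue genes lower at an adjusted p under 0.05 in edgeR, and grey those that did not pass, with *Nr1d2* lowest at -2.68 and *Npas2* highest at 2.62.

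Listed were 19 genes for kinases, ubiquitin ligases and deubiquitinases that act on PER and CRY proteins, and for partners of these proteins. With edgeR 0 of the 19 passed and 3 had an unadjusted p under 0.05, as 20.9% of all genes tested did, and the median log2 fold change was 0.05 (range -0.62 to 0.67). The casein kinases that phosphorylate PER had values of 0.05 (*Csnk1d*), 0.06 (*Csnk1e*) and 0.04 (*Csnk1a1*). Among 11 genes of the glucocorticoid and CREB routes that induce *Per1*, 0 passed in edgeR and 1 had an unadjusted p under 0.05, against the same 20.9%, with a median of 0.00. *Nr3c1*, the glucocorticoid receptor, was at -0.15, *Creb1* at -0.10 and *Fkbp5*, a receptor target, at -0.13. The 1 gene was *Sgk1*, chosen here after its value was seen, at 0.75 (adjusted p = 0.0519).

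The profiles most like those of the members over the 7 libraries were named by the smallest root mean square difference in centred log2 CPM. For *Per3*, they were *Dbp* (0.2003), *Neb* (0.2046) and *Nr1d1* (0.251), and no gene lay within 0.2. *Neb* encodes a protein of skeletal muscle. The 6 skeletal muscle markers summed to 4.98 to 6.6 CPM in the libraries labelled *Bmal1*-/- and 45.7 to 59.8 CPM in WT, 5 of the 6 passed as lower, none was at 0 throughout, and their part in the *Per3* difference was not tested. *Cry1* was nearest to *Dpy19l3* (0.1668), *Plat* (0.1724) and *Hebp2* (0.194), the only 3 genes within 0.2.

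The members that did not pass had many close profiles. Profiles were centred but not scaled, so a gene with a small difference between genotypes lies near many others. *Per2* was nearest to *Ogdhl* (0.0727) and *Cst3* (0.074), with 1007 genes within 0.2. *Cry2* was nearest to *Thra* (0.0386), *Nrip2* (0.0394) and *Grik3* (0.0449), with 1473 within 0.2. *Per1* was nearest to *Ppm1h* (0.0269), *Tasp1* (0.0303) and *Thnsl1* (0.0364), with 5747 within 0.2.

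The summed levels of some cell type markers also differed between the groups without overlap, though few of their genes passed. Astrocyte markers (6 genes) summed to 14101 to 16782 CPM in the libraries labelled *Bmal1*-/- and 9524 to 13609 CPM in WT, and neuron markers to 3651 to 4407 CPM against 1566 to 3606 CPM. None of these 12 genes passed in edgeR. *Gfap* made up most of the astrocyte sum (mean 11642 against 8702 CPM), while *Aldh1l1* (log2 fold change -0.47) and *Slc1a3* (-0.44) had the opposite sign. Endothelial sums were 337 to 387 against 399.8 to 654 CPM, with 1 of 6 genes passing as lower, *Cdh5*. Sums of proliferation genes were 238 to 307 against 379.7 to 634 CPM, and 0 of the 6 passed in edgeR. All 6 were lower without overlap, as 13.5% of all genes were, with a median log2 fold change of -0.91. An unadjusted p under 0.05 in edgeR was found for 6 of the 6, against 20.9% of all genes tested. Oligodendrocyte and microglia or macrophage sums overlapped between the groups. Fibroblast sums were 486, 2330.1 and 407 CPM in the libraries labelled *Bmal1*-/- and 1636, 1926, 1338 and 1216 CPM in WT. They overlapped only through *Bmal1*-/- replicate 2, and the other libraries with that label lay below every WT library. The part of these marker sums in the *Per* and *Cry* differences was not tested.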

How the data were processed

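Total RNA from 3 *Bmal1*-/- and 4 WT cords was made by the authors into stranded poly-A libraries, aligned to GRCm38 (mm10) with Tophat2 and counted per gene with HTSeq 0.10.0, with reads checked in FastQC 0.10.1. The strand setting of the counting and the annotation release are not given in the sources used here. The authors deposited raw counts without normalization.

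Groups came from the labels. Of 21965 genes, 3039 had no count and 15743 passed edgeR's filterByExpr. After TMM scaling, genotype was tested alone with the quasi-likelihood test of edgeR 4.0.16 (limma 3.58.1, R 4.3.3), with adjusted p-values (Benjamini-Hochberg) called under 0.05. CPM are TMM-scaled. DESeq2 (1.42.0), limma-voom, other scalings, filters and covariates and fits without each library were alternatives. Standard errors were taken from the log2 fold change and its F statistic. The fits were tested on simulated data. Ratios of counts (0.5 added) were compared over all 35 assignments of libraries. Depth was 38529644 to 44096737 counts per library. For each member, the variation between mice estimated in the fit (9.69% to 15.9%) exceeded the counting error (1.7% to 5.76%). The spread between mice thus sets the precision of the fold changes. Exon lengths, overlaps and coordinates are those of GENCODE M21 on GRCm38, to which 21939 identifiers matched, and windows of 75 exon bases were compared between genes. No member shared one with another member, and *Cry2* shared 150 of 6243 (2.4%) with the antisense gene D930015M05Rik.

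The members and gene lists were chosen with earlier results of these data known. Beside the members, every listed clock gene that passed is named, with up to 3 others per list in list order, and the 3 nearest profiles per member, apart from 2 genes that are not reported here.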

Additional observations from a re-analysis of the deposited data

Results flagged for a closer look

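*Cry2* in WT was flagged because 1 library lay far from the others. Its level was 43.2 CPM in WT replicate 3 and 60.3 to 63.2 CPM in the other 3 WT libraries, and the gap to the nearest of them made up 0.855 of the whole range of the group, above Dixon's 95% critical value for 4 samples. Groups of 4 were tested for 10 values, of which chance flags about 1 in 20, and groups of 3 were not tested. The same library had the lowest sum of neuron markers and lay apart from the other WT libraries along the leading components of expression, and the part of either in this value was not tested.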

How the results depend on the processing

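*Per3* and *Cry1* kept their direction in each alternative and their call in each but the replicate block. In DESeq2, 1495 genes passed instead of 247, which was 9.13% of the genes given an adjusted p. There, 7 other clock genes were higher instead of 4 and 7 were lower instead of 5, and *Per1* (0.27), *Per2* (0.55) and *Cry2* (0.59) passed. With the GC content and length trend removed, *Per2* (0.58) and *Cry2* (0.61) passed, and 44.0% of the called genes were lower instead of 58.3%. Replicate numbers are shared by the groups, but deviations of same-numbered libraries correlated at -0.174, 0.183 and -0.295, not every library correlated best with its own number, and the numbers were not taken to pair the mice. With the number as a replicate block, 0 genes passed in edgeR (1590 at an unadjusted p under 0.05), as did 0 higher and 0 lower other clock genes, with *Per3* at -2.09 and *Cry1* at 1.63 (adjusted p = 0.0765 for both, the highest over their 9 alternatives, with the lowest at 4.54e-34 and 8.49e-50 in DESeq2). That fit has fewer residual degrees of freedom. With each library left out, 57 to 730 genes passed, the most without WT replicate 3 and the fewest without *Bmal1*-/- replicate 1. Other clock genes ran from 2 to 5 higher and 3 to 6 lower, *Per2* from 0.46 to 0.62 and *Cry2* from 0.47 to 0.63, with 4 of the 5 members passing without WT replicate 3 and 2 in each other such fit. The ratios of counts kept their direction under each added constant and with each library left out, where fewer libraries leave no threshold to pass. For ratios whose groups did not overlap, leaving out a library could not have reversed the direction. The cause of these shifts was not tested.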

Other observations

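D-box letters were also looked for in the promoters of all genes, since *Per3* held them at 2 places. Of 110 tested genes with a D-box in a RefSeq promoter window, 0 were higher and 5 were lower in edgeR (4.55%), and their median log2 fold change was 0.02. Among 12238 tested genes with any window, 0.662% were higher and 0.874% were lower. The 5 were *Per3*, *Gkn3* (-3.60), *Chil1* (-2.76), *Slc16a12* (-1.08) and *Coq10b* (-0.58), all named after their values were seen. The share of 4.55% counts *Per3*, the gene that prompted the search. For the E-box, 6 of 1337 genes were higher and 9 were lower, and *Cry1* is among the 6. For the E′-box, 7 of 749 were higher and 5 were lower. The core of REV-ERB and ROR stood in the windows of 1861 tested genes, of which 18 were higher and 17 were lower. The search was made after the data were seen, and no test of these shares was run.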
